A study of Homo sapiens with 4 samples.

Results

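A 7 Mb segment of human chromosome 1 carried SAF-A peaks at 2.69 to 3.15 times the density of the chromosome that follows it. It lies at chr1:150000001-157000000 on the hs1 assembly, and a few of its 100 kb bins held almost no peaks. The segment was chosen by its peak density in these same libraries, as the peaks of 4 lists whose summit lies inside those borders. It held 2624 of the 371322 nuclear peaks. They were divided into 716 and 586 in asynchronous replicates 3 and 4, with 543 and 779 in the mitotic ones. Since density chose the segment, all values that set it against its neighbourhood are descriptions with no test. The reference is the 43 Mb that follow on the same chromosome, up to 200 Mb.

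SAF-A was profiled by CUT&Tag, in which an antibody tethers a transposase that cuts out DNA near the bound protein, in 100000 wild-type RPE1 cells per assay. RPE1 is an immortalised line from human retinal pigment epithelium. One group of 2 libraries came from asynchronous cells and the other 2 from cells synchronised in mitosis, and all 4 received 1 pg of E. coli DNA as a spike-in. The comparison addresses how SAF-A occupies chromatin in mitosis as against cycling cells. Whether the replicates were separate cultures is not in the labels. The spread that p-values rest on here is that between these libraries and may be technical.

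SAF-A, encoded by HNRNPU, is an abundant nuclear protein that binds both RNA and DNA and holds chromatin-associated RNA in place in interphase. Bands 1q21 and 1q22 of the long arm, for which the segment is named, are known for the epidermal differentiation complex, a run of skin barrier genes expressed late in keratinocyte maturation. Its members include filaggrin and loricrin, structural proteins of the cornified layer, involucrin, the late cornified envelope genes, the small proline-rich genes and the calcium-binding S100 genes. In RefSeq's gene order on GRCh38, 63 protein-coding genes stand from S100A10 to S100A1, of which 19 are late cornified envelope, 11 small proline-rich and 16 S100A genes. Further along, 36 protein-coding genes stand from ADAM15, a membrane protease, to LMNA, which encodes the nuclear lamina proteins lamin A and C. Positions of these genes on hs1 were not used here, so the bins below are given by coordinate only, and which bins hold the epidermal genes was not tested.

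Peaks along the segment formed 2 crests, 1 trough and a sparse end. In the plot of summits along the segment, 42 of its 70 bins of 100 kb lay above 32.1 summits over the 4 libraries, the 90th percentile of the 430 reference bins. The median bin held 36 summits, against 9 in the reference. A total of 12 bins passed 55, the highest count of any reference bin.

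**Figure D1:**
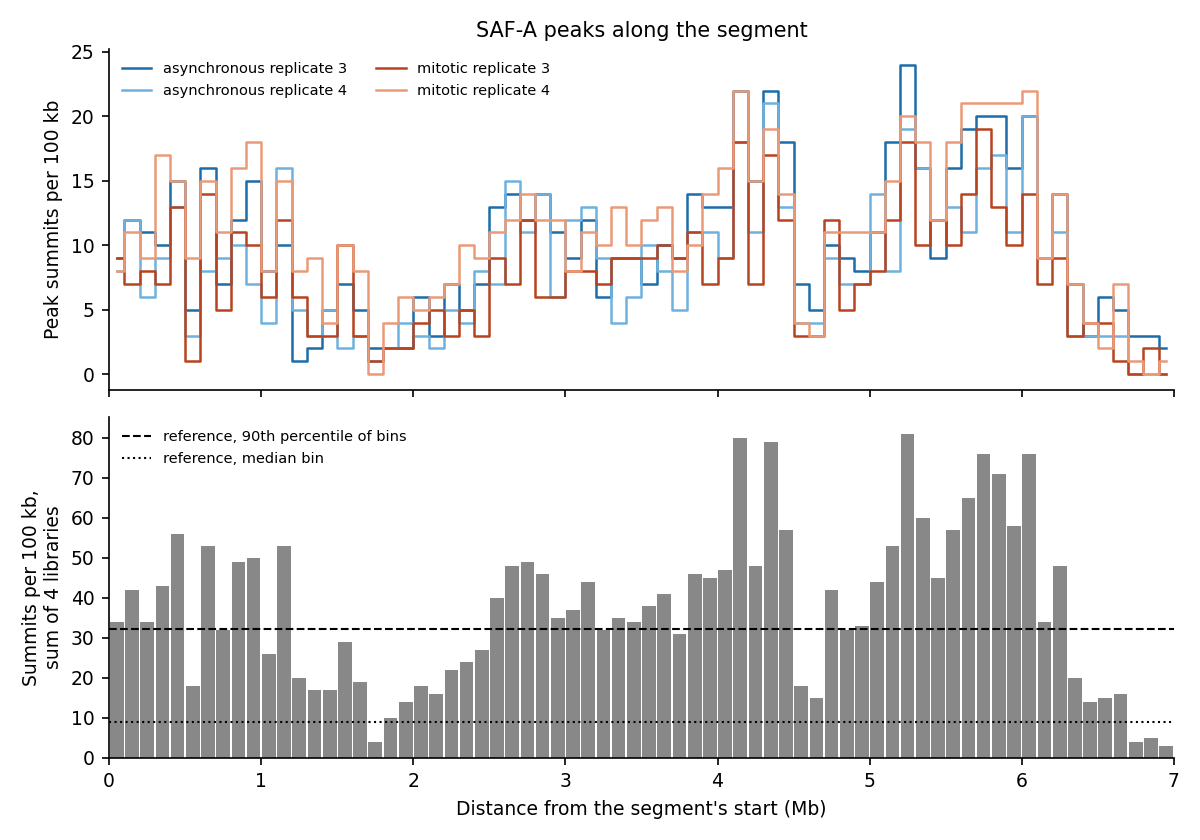
Peak summits per 100 kb against distance from the segment's start (Mb), by library (upper panel) and summed over 4 libraries (lower panel). The lower panel's dashed line is the 90th percentile of reference bins (32.1) and the dotted line their median (9); the 4 libraries trace the same crests, and the sum peaks at 81.

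The densest of all bins was chr1:155200001-155300000. It had 24 and 19 summits in asynchronous replicates 3 and 4, with 18 and 20 in the mitotic ones. Its first rank rested on asynchronous replicate 3: without that library it held 57 summits and the highest bin 58. Next came chr1:154100001-154200000 with 80 summits in all and chr1:154300001-154400000 with 79. With ties kept, 11 bins formed the densest set, and each held at least 57 summits. They fell into 2 groups, 8 of them between 155200001 and 156100000 and the other 3 between 154100001 and 154500000.

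The longest unbroken run of bins above the reference's 90th percentile was chr1:154900001-156300000, 14 bins long. It held 220 and 184 summits in asynchronous replicates 3 and 4 and 163 and 234 in the mitotic ones. A pair of shorter runs of 7 bins each stood upstream. In chr1:152500001-153200000, asynchronous replicates 3 and 4 had 85 and 78 summits and mitotic replicates 3 and 4 had 56 and 80. In chr1:153800001-154500000, the counts were 117, 94, 81 and 110 in the same order. High density thus came in 3 long runs separated by short gaps, and it did not build up evenly towards the block.

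Sparse bins clustered as well. The 11 bins with the fewest summits, none above 16, lay in 3 places: 6 between 156400001 and 157000000, 4 between 151200001 and 152200000, and 1 at chr1:154600001-154700000. The last 3 bins, chr1:156700001-157000000, held 8, 0, 2 and 2 summits. Within the trough, chr1:151700001-151800000 held 2, 1, 1 and 0. The most crowded bin and the emptiest one are less than 2 Mb apart.

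The borders of the segment are not borders in the data. The last bin before it held 26 summits and its first bin 34. At the far end, the last bin inside held 3 summits and the first one outside 14. The upstream border thus cuts through a dense stretch, and the downstream border lies beside the lowest count of the segment.

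The 4 libraries agreed on this map in both cell states. Across the 70 bins, Pearson's r between libraries ran from 0.794 (asynchronous replicate 4 with mitotic replicate 3) to 0.876 (asynchronous replicate 3 with mitotic replicate 4). Between the 2 asynchronous libraries it was 0.849, and between the 2 mitotic ones 0.839, within the range of the pairs across states. Bins of a library share its depth and neighbouring bins share chromatin, so these values describe the map and carry no p.

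Of the 1 Mb windows, chr1:155000001-156000000, referred to here as the block, was the densest of the 7. Its peaks numbered 169 and 137 in asynchronous replicates 3 and 4 and 126 and 178 in the mitotic ones. Shifted by 1 bin to chr1:155100001-156100000, the densest possible 1 Mb, the counts were 178, 143, 132 and 189. The sparsest 1 Mb, chr1:151200001-152200000, had 35, 30, 39 and 60. The trough was about as dense as the reference: per Mb it held 0.973, 1.13, 1.38 and 1.45 times the reference's summits.

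Crowded bins also held taller and wider peaks. Summit height is the number of overlapping fragments at the summit, recovered from the authors' fold and p-value. In the segment its median was 21.5 fragments for asynchronous replicate 3 and 20 for replicate 4, and 18 and 23 for mitotic replicates 3 and 4. In the reference it was 11, 10, 10 and 13. On the log2 scale the segment's median stood above the reference's by 0.91 ± 0.0870 (SD, n = 4), or 1.88-fold, in 4 of 4 libraries. In the block the excess came to 2.42-fold, and in the sparsest 1 Mb the ratio was 0.820. These are heights of called peaks only. Each was called against a local background, described below, that was 2.79-fold the reference's in the segment and 4.23-fold in the block. How far the heights depend on that level was not tested.

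Tall summits were most of the block's peaks in asynchronous libraries. Heights over 20 times the genome background, the lowest background level in each list, made up 52.7% and 58.4% of block peaks in asynchronous replicates 3 and 4 and 44.4% and 40.4% in the mitotic ones. Over the reference such summits were 8.80%, 12.4%, 10.9% and 9.15% of peaks. The window before the block, chr1:154000001-155000000, gave 44.2%, 56.3%, 48.4% and 42.9%, above the block in both mitotic libraries. In the sparsest 1 Mb they numbered 0%, 0%, 2.56% and 0%.

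The background around peaks was also highest where peaks were dense. Local background, the fragment level that the authors' caller compared each summit with, had a median of 4.27 and 4.29 times the genome background at peaks of the segment in asynchronous replicates 3 and 4. In mitotic replicates 3 and 4 it was 3.88 and 3.72 times. In the reference the medians were 1.34, 1.5, 1.51 and 1.43, and in the block 6.56, 6.50, 5.44 and 6.02. How much of this level came from neighbouring peaks was not tested.

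The authors' fold over local background ran the other way from the heights. Its median was 3.30, 3.46, 3.54 and 3.23 in the segment against 3.78, 3.93, 3.98 and 3.72 in the reference, in the order asynchronous replicates 3 and 4, then mitotic replicates 3 and 4. In the block it was lowest, at 2.98, 3.13, 3.06 and 2.83. The block's peaks were thus the taller ones in fragments while standing out less from their surroundings.

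**Figure D2:**
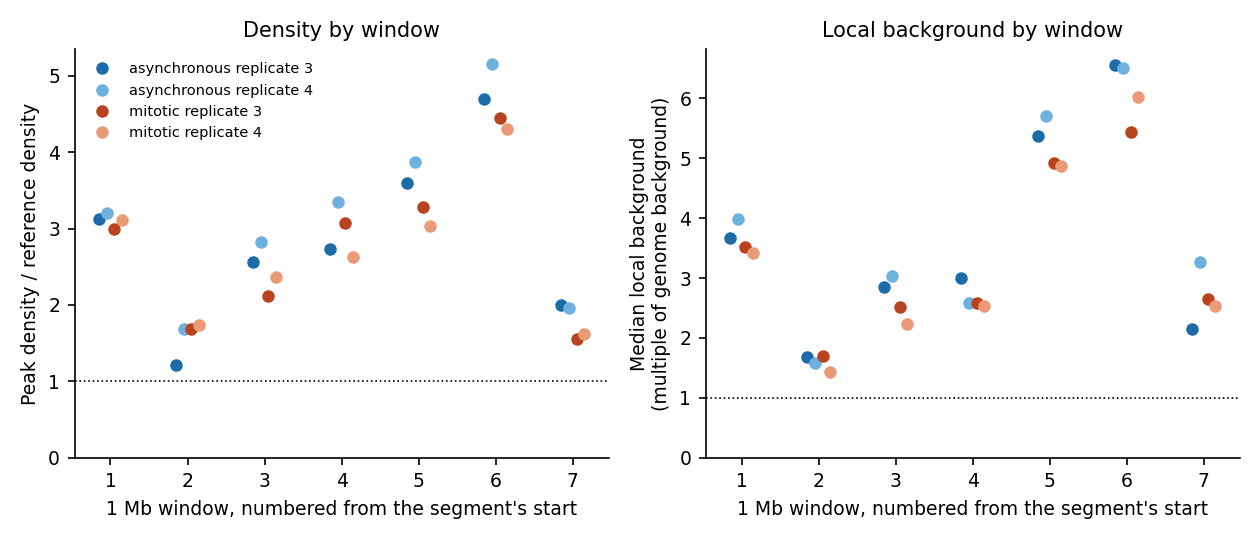
Peak density relative to the reference (left) and median local background at peaks, as a multiple of genome background (right), in the 7 consecutive 1 Mb windows; each point is 1 library and the dotted line marks 1. Both quantities are highest in the sixth window, the block, where local background reaches 6.56 times the genome background. Local background is lowest in the second window (1.43 to 1.70), while density is lowest there in asynchronous libraries (1.22 and 1.69) and in the seventh in mitotic ones (1.55 and 1.62).

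Peak width changed less than height. Median width was 317 and 314 bp in asynchronous replicates 3 and 4 and 331 and 358 bp in the mitotic ones, against 298, 283, 304 and 322 bp in the reference. The segment's peaks were 1.09-fold wider by the mean of 4 log2 ratios, in 4 of 4 libraries, and those of the block 1.22-fold. Peaks over 1000 bp made up 2.51%, 2.22%, 3.68% and 5.01% of the segment's peaks and 1.49%, 1.14%, 1.89% and 2.64% of the reference's. Over the 70 bins, Spearman's rho with the bin's summit count was 0.872 for median height, 0.623 for median width and 0.731 for the share of peaks found in every library. All 3 were measured on the same peaks and libraries as the count.

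Peaks of the segment were found again in the other libraries more often than those of the reference. Peaks that touch by at least 1 bp were merged into regions. The segment had 1474 regions, of which 13.9%, or 205, were called in all 4 libraries and 61.9% in 1 library alone. In the reference 7.28% of 3871 regions were called in all 4, and over all nuclear chromosomes 8.38% of 242505. Counted by peaks, 31.3% and 37.5% of those in asynchronous replicates 3 and 4 belonged to such regions, and 40% and 27.3% of those in mitotic replicates 3 and 4. The reference gave 19.5%, 26.2%, 23.8% and 16.2%. The mean excess was 12.6 percentage points, in 4 of 4 libraries. It came to 6.99 points with the authors' -log10 q at 5 or more, and to 5.61 points when 2 peaks had to cover 50% of each other. Denser and wider peaks touch by chance more often. Peaks covered 3.17% to 4.86% of the segment and 0.884% to 1.59% of the reference, by library. How much of the excess went with this was not tested.

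Within the segment, sharing followed density. In the block 40.2%, 48.2%, 53.2% and 36.5% of peaks belonged to fully shared regions. In the sparsest 1 Mb these shares were 11.4%, 13.3%, 10.3% and 8.33%, from 4 shared regions. Of the 70 bins, 16 held no shared region at all. Bins of the segment and the reference were then set side by side by the number of summits they held. With 20 to 39 summits per bin, the segment gave 23.2%, 27.9%, 26.1% and 19.4% and the reference 21.4%, 26.2%, 25.1% and 15.8%. With 40 to 59 summits the segment gave 34.6%, 40.2%, 42.9% and 29.1%, and the reference 32.5%, 41.0%, 37.5% and 28.2%. Under 20 summits per bin the segment was lower in 4 of 4 libraries, with 4.55%, 6.98%, 7.32% and 5.48% on 41 to 73 peaks each, beside 12.1%, 19.3%, 16.3% and 12.0% in the reference.

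At summit heights of 8 to 32 times the genome background, a peak of the segment was found in all 4 libraries less often than a peak of the reference. For heights of 16 to 32 times the genome background, the shares were 40% and 44.4% in asynchronous replicates 3 and 4 and 57.1% and 43.9% in the mitotic ones. Reference peaks of that height gave 77.3%, 78.4%, 77.2% and 68.2%. The mean difference was -28.9 percentage points (SD 8.07, n = 4), lower in 4 of 4 libraries. Heights of 8 to 16 times showed a smaller gap of -8.54 points (SD 2.91, n = 4), again in 4 of 4. Under 8 times the order was not the same: the segment gave 5.61%, 9.23%, 1.79% and 1.60% and the reference 2.28%, 3.17%, 3.28% and 1.36%, so that the segment was higher in 3 of 4 libraries.

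At the same fold over local background the order turned round. Among peaks with a fold of 4 to 6, 53.5%, 55.9%, 57.9% and 50.4% of the segment's were in regions called in all 4 libraries. For the reference's the shares were 24.7%, 29.2%, 25.8% and 21.3%. Median height in that fold class was 21.8, 18.4, 18.8 and 20.7 times the genome background in the segment, and 8.70, 9.43, 9.38 and 8.95 times in the reference. Neither height nor fold on its own placed the segment's peaks with reference peaks of equal sharing. These matched classes were chosen after the shares had been seen.

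**Figure D3:**
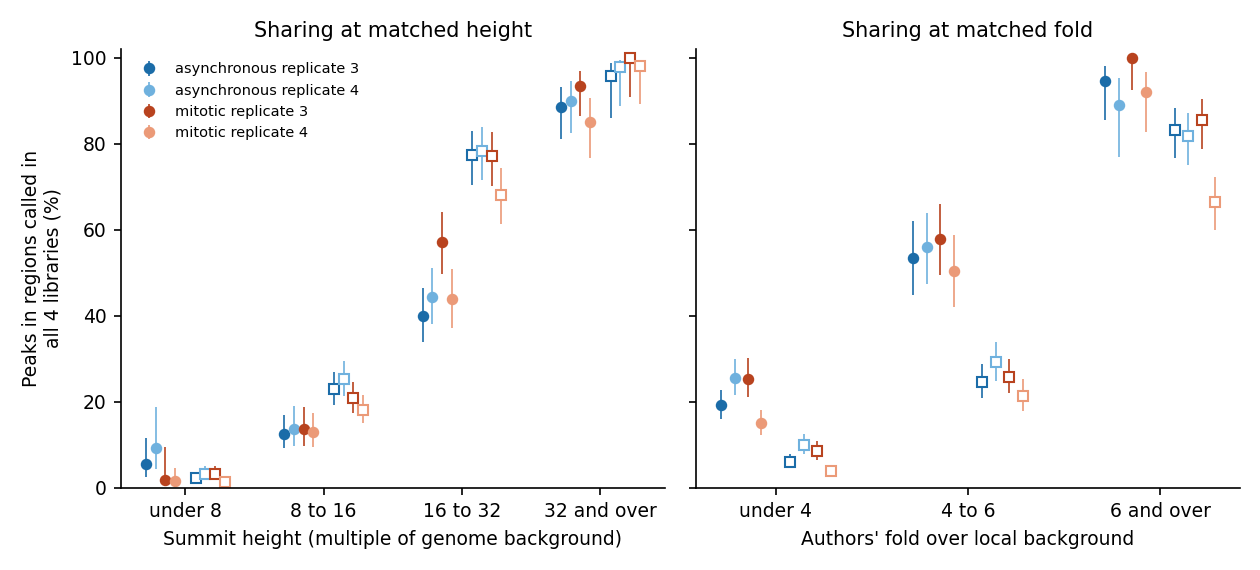
Percentage of peaks in regions called in all 4 libraries, by summit height (left) and by the authors' fold over local background (right); filled circles are the segment, open squares the reference, bars 95% Wilson intervals that cover counting error only. At 16 to 32 times the genome background the segment lies lower (40% to 57.1% against 68.2% to 78.4%), and at a fold of 4 to 6 it lies higher (50.4% to 57.9% against 21.3% to 29.2%).

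The share of the SAF-A map that fell here was slightly lower in the mitotic libraries, by a value that the design cannot test. The segment took 0.708% and 0.766% of nuclear peaks in asynchronous replicates 3 and 4 and 0.688% and 0.678% in the mitotic ones. The groups did not overlap, at 0.737% ± 0.0413 and 0.683% ± 0.00698 (SD, n = 2 each; exact two-sided permutation p = 0.333). That is the smallest p that 2 libraries against 2 can give, so no single value per library can reach 0.05 in this design. The difference of -0.0539 percentage points became -0.0248 without asynchronous replicate 4, -0.0831 without asynchronous replicate 3 and -0.108 among peaks with a -log10 q of at least 5.

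In the mitotic libraries the block stood out less and the trough was less empty, though by values that the design cannot test. Per Mb the block held 4.70 and 5.15 times the reference's summits in asynchronous replicates 3 and 4, and 4.45 and 4.30 times in the mitotic ones. The means were 4.93 ± 0.321 and 4.37 ± 0.107 (SD, n = 2 each; exact permutation p = 0.333). Without asynchronous replicate 4 the difference of -0.554 shrank to -0.328, and counted in covered bases it was -0.867. Lower mitotic ratios were not particular to the block. The rest of the segment gave 2.68 ± 0.198 in asynchronous and 2.44 ± 0.0249 in mitotic libraries (SD, n = 2 each). The window before the block gave 3.73 ± 0.203 and 3.16 ± 0.171 (SD, n = 2 each), a difference of -0.569. In the sparsest 1 Mb the ratio to the reference went the other way, with 1.05 ± 0.110 in asynchronous and 1.41 ± 0.0508 in mitotic libraries (SD, n = 2 each; exact permutation p = 0.333). The 2 windows set against each other gave 4.83 and 4.57 block summits per trough summit in asynchronous cells, and 3.23 and 2.97 in mitotic cells. This last ratio was added after the counts had been seen. With a -log10 q of at least 5 its mitotic minus asynchronous difference of -1.60 became -23.6, on trough counts of 4, 1, 6 and 7.

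Depth differed among the libraries and overlapped between the cell states, with mitotic replicate 4 the deepest. The genome background, which stands for relative depth, was 1.379 fragments for asynchronous replicate 3, 1.166 for asynchronous replicate 4, 1.173 for mitotic replicate 3 and 1.788 for mitotic replicate 4. Asynchronous replicate 4 and mitotic replicate 3 were close in depth and in list length, with 76460 and 78900 nuclear peaks. Between these 2 libraries the block's ratio was 5.15 and 4.45, and the block's share of tall summits 58.4% and 44.4%. With all lists cut to equal length the difference in the block's ratio was -0.607. Within each state the deeper library had the lower block ratio, 4.70 against 5.15 in asynchronous and 4.30 against 4.45 in mitotic cells. Its share of tall summits was also lower, at 52.7% against 58.4% and 40.4% against 44.4%. How much of the difference between states went with depth was not tested.

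The 7 windows were compared by the same ratio to the reference. In chr1:151000001-152000000 the mitotic ratios were the higher, with 1.22 and 1.69 in asynchronous and 1.69 and 1.74 in mitotic replicates 3 and 4, the middle pair equal after rounding. The last window, chr1:156000001-157000000, had lower mitotic ratios, at 2.0 and 1.96 against 1.55 and 1.62. Local background in the block, at 6.53 ± 0.0385 and 5.73 ± 0.409 times the genome background (SD, n = 2 each), was also lower in mitosis without overlap (exact permutation p = 0.333). Median peak width in the segment was 28.8 bp higher in mitotic libraries, and in the reference 22.5 bp higher. The ratio of segment to reference width overlapped between the groups.

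No bin of the segment passed the test between cell states. Limma was fitted to the log2 density of 13843 bins of the nuclear genome with at least 8 summits over the 4 libraries, and 0% of them had a Benjamini-Hochberg adjusted p under 0.05. Of the segment's 70 bins, 66 entered the fit and 0 passed; the other 4 had too few summits. At an unadjusted p under 0.05, 2 of the 66 were lower and 2 higher in mitosis, or 3.03% each, beside 2.73% and 3.05% of all bins tested. These shares are near the background. Without asynchronous replicate 3, 10 of the 66, or 15.2%, were lower, beside 3.61% of all bins in that fit, and the count past the adjusted threshold was again 0. Both mitotic libraries lay under both asynchronous ones in 20 of 66 bins, or 30.3%, beside 18.8% of all bins, and over them in 7, or 10.6%, beside 15.2%. The median difference was -0.040 on the log2 scale in the segment, 0.024 in the reference and -0.002 over all bins.

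Bins with the most divergent counts lay away from the block. In chr1:151500001-151600000, inside the trough, asynchronous replicates 3 and 4 had 7 and 2 summits and mitotic ones 10 and 10. The log2 difference there was 0.71 (SE 0.25; limma adjusted p = 0.676). In chr1:152800001-152900000 the counts were 14 and 14 against 6 and 12, a log2 difference of -0.59 (SE 0.22; limma adjusted p = 0.712). In chr1:152600001-152700000 they were 14 and 15 against 7 and 12. All 3 differences rest on at most 15 summits per library, and none passed the test.

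**Figure D4:**
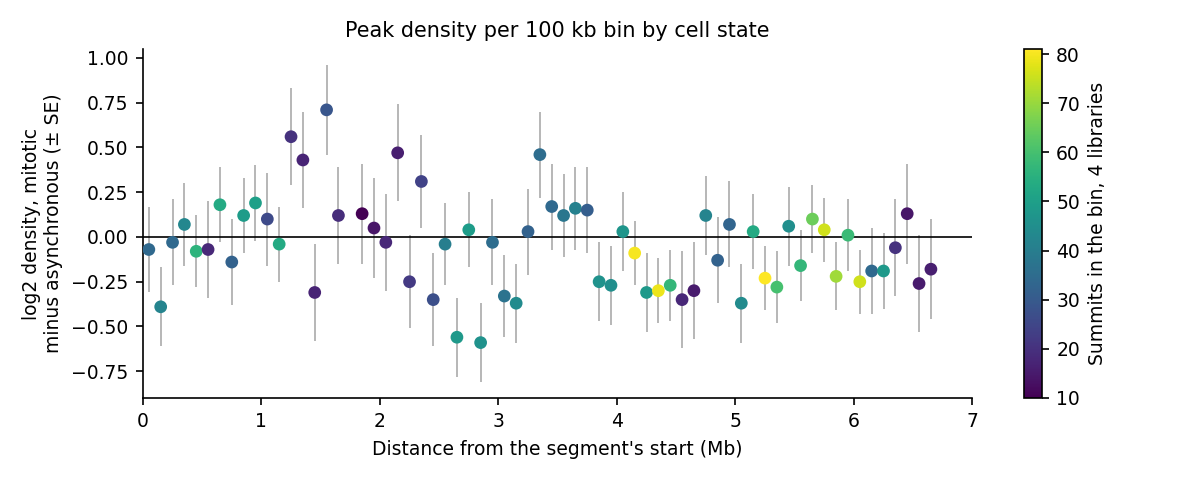
Log2 difference in peak density, mitotic minus asynchronous, for the 66 tested bins against distance from the segment's start (Mb); bars are limma standard errors and colour is the bin's summit count over 4 libraries. Differences run from -0.59 to 0.71 with 0 bins past the test, and the highest lie in the trough.

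Heights in the shared regions gave a second measure, which depends less on how many weak peaks a library lists. Each region's summit height was divided by its library's median over the 20334 nuclear regions called in all 4 libraries. The segment's 205 such regions had a median of 1.64 and 1.67 in asynchronous replicates 3 and 4 and 1.55 and 1.55 in the mitotic ones. The groups did not overlap, at 1.65 ± 0.0189 and 1.55 ± 0.00321 (SD, n = 2 each; exact permutation p = 0.333). In the reference's 282 regions the medians were 1.04, 1.05, 1.1 and 1.03. By construction such regions were called everywhere, and they cannot show peaks lost or gained.

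In the block the median height and the differences region by region did not give the same picture. The median over 61 regions was 1.80 and 1.76 in asynchronous and 1.80 and 1.76 in mitotic replicates 3 and 4. The difference of -0.00216 was smaller than the spread between replicates. Taken region by region, 44 of the 61 had a negative log2 difference by limma, mitotic minus asynchronous, beside 10670 of all 20334 shared regions. The median was -0.14 in the block and -0.018 over all shared regions. Both mitotic values lay under both asynchronous ones in 24 of the 61, or 39.3%, beside 20.2% of all shared regions tested. They lay over both in 4 of the block's regions, or 6.56%, beside 17.1%. None passed the adjusted threshold, and neighbouring regions measured in the same libraries are not independent.

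The tallest shared region lay near the start of the segment, outside the block. At chr1:150404945-150406138 the heights, relative to the library medians, were 9.16 and 9.57 for the asynchronous libraries and 7.85 and 9.42 for the mitotic ones. The means were 9.37 ± 0.291 and 8.64 ± 1.11 (SD, n = 2 each), and the region ranked 63 among 20334. All 4 libraries placed the summit on the same base. The log2 difference was -0.12 (SE 0.15; limma adjusted p = 0.880).

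The second, chr1:151171246-151172322, stood at the edge of the trough. It had 203 and 173 fragments in asynchronous and 161 and 241 in mitotic replicates 3 and 4, with summits at most 5 bp apart and rank 82. Its bin held 53 summits, and the next bin, where the trough begins, held 20. The third, chr1:155099967-155100685, was the tallest of the block. Its heights of 189 and 149 against 106 and 202 fragments gave a log2 difference of -0.36 (SE 0.15; limma adjusted p = 0.444), and the mitotic values lay below the asynchronous ones once scaled.

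Of the 10 tallest regions, 6 lay in the block, among them chr1:155252579-155253284, chr1:155595106-155596498 and chr1:155846108-155846863. After scaling, 5 of the 10 were lower in both mitotic libraries than in both asynchronous ones, 0 were higher and 5 overlapped. Over all shared regions tested, 20.2% were lower and 17.1% higher in this way. None passed the test. The distance between the libraries' summits had a median of 135 bp in the segment, 142 bp in the reference and 141 bp over all nuclear regions. Summits agreed within 10 bp in 12.7%, 7.09% and 7.42% of regions in that order. The upper quartile of the distance went the other way, at 330, 281 and 279 bp, and in the block it was 436 bp.

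**Figure D5:**
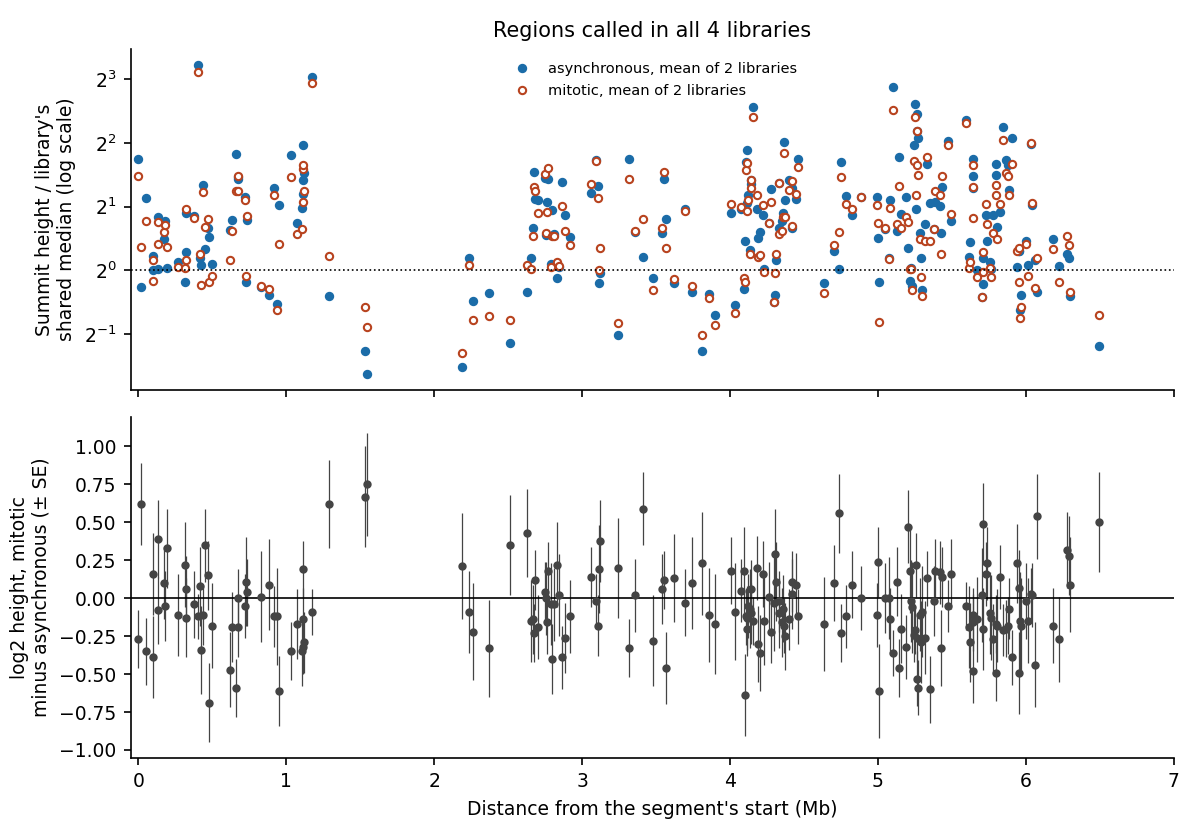
The 205 regions called in all 4 libraries against distance from the segment's start (Mb): summit height as a multiple of the library's median shared region, on a log scale (upper panel), and log2 difference, mitotic minus asynchronous, with limma standard errors (lower panel). The tallest region reaches 9.37 in asynchronous libraries; differences run from -0.69 to 0.75 and 0 regions passed the test.

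By limma on those log2 heights, 0 of the 205 regions had an adjusted p under 0.05, beside 0.0590% of the 20334 tested. The smallest adjusted p was 0.194. At an unadjusted p under 0.05, 12 regions or 5.85% were lower in mitosis, beside 4.82% of all, and 6 or 2.93% were higher, beside 4.08%. Of those regions, the block's 61 held 8 lower and 0 higher, and the 144 outside it held 4 lower and 6 higher. Regions share the same libraries and neighbouring ones share chromatin, so this split is a description with no test. Over all 205, both mitotic values lay under both asynchronous ones in 52 regions, or 25.4%, beside 20.2%. They lay over both in 22, or 10.7%, beside 17.1%. The median log2 difference was -0.089 in the segment, 0.026 in the reference and -0.018 over all shared regions. Of the 205, 92.2% stayed within 0.5 log2 units.

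The region with the smallest p was chr1:155268385-155268988 in the block, where asynchronous replicates 3 and 4 had 101 and 93 fragments and the mitotic ones 54 and 97. Relative to library medians these were 4.23 ± 0.275 and 2.82 ± 0.169 (SD, n = 2 each), a log2 difference of -0.59 (SE 0.18; limma adjusted p = 0.194). A neighbour, chr1:155261159-155262380, had 4.56 and 4.52 times the library medians in asynchronous against 3.15 and 3.12 in mitotic libraries, and a log2 difference of -0.53 (SE 0.18; limma adjusted p = 0.243). The libraries' summits lay up to 754 bp apart in this neighbour, so its heights need not come from 1 site. In the first region they lay within 1 bp. Both regions lie in the densest bin, which held 2.37 and 2.48 of every 10000 nuclear peaks in asynchronous and 2.28 and 1.74 in mitotic replicates 3 and 4.

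In the trough the few shared regions leaned the other way. The sparsest 1 Mb held only 4, and 3 of them were higher in both mitotic libraries, beside 17.1% of all shared regions tested. At chr1:151546168-151546961 the heights were 9 and 6 fragments in asynchronous and 12 and 16 in mitotic replicates 3 and 4, a log2 difference of 0.75 (SE 0.34; limma adjusted p = 0.487). At chr1:151535123-151536068 they were 10 and 9 against 16 and 18, and at chr1:151291109-151292044 21 and 14 against 28 and 31. Between libraries their summits lay up to 530, 231 and 120 bp apart, in the order named. By mean height the 3 regions ranked 19973, 18737 and 10902 of the 20334 shared regions, and none passed the test. They were singled out after their values had been seen.

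Regions found in both libraries of 1 state and neither of the other were rare. The segment had 31 called only in asynchronous cells, 2.10% of its regions, and 44 only in mitotic cells, 2.99%. Over all nuclear regions the shares were 1.66% and 2.80%. In the block there were 2 and 8, or 0.697% and 2.79% of its 287 regions. Requiring 50% reciprocal overlap turned the order, to 54 asynchronous-only and 45 mitotic-only peaks. No test was run on these counts, and neither state is set above the other.

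One mitotic-only region stood out by height. At chr1:154363174-154363489, inside the upstream crest, mitotic replicates 3 and 4 had 53 and 96 fragments, the highest value of any mitotic-only region of the nuclear genome in each library. Those heights were at percentiles 98.6 and 99.2 of the 2 lists. The other 4 of the strongest 5 had 22 to 32 fragments in mitotic replicate 3 and 40 to 67 in replicate 4. The strongest asynchronous-only region was chr1:156026929-156027380, just past the block, with 54 and 36 fragments in asynchronous replicates 3 and 4. Each such region was absent from 2 lists by a threshold, and the fragment level there in the other state was not analysed here.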

How the data were processed

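SAF-A CUT&Tag libraries of 2 asynchronous and 2 mitotic RPE1 samples were grouped by their titles. The submitters' processing notes name MACS2, Bowtie2, bedtools and fastp, and the build hs1. Versions, parameters, any control library and the handling of duplicates and spike-in were not given in the sources used here. The authors deposited 1 peak list per library. Their fold is the ratio of summit pileup to local background, their -log10 p and -log10 q are peak caller output, and the deposited score, 10 times the -log10 q, was not used. These are the authors' values for each peak. Positions count from 1.

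Summit pileups were recovered by solving fold and Poisson p together, and 100% of those in the segment came out whole within 0.05. The smallest local background in a list served as its genome background. Whether it includes mitochondrial or spike-in fragments is not in the sources used here, and library totals were not used. Depth limits precision through the small number of summits per bin. Peaks were merged at 1 bp of overlap. Bins of 100 kb with at least 8 summits were tested with limma 3.58.1 (R 4.3.3) on log2 of summits per 10000 nuclear peaks plus a pseudocount of 0.5. Shared regions were tested with limma on log2 height over the library's shared median, with trended variances and Benjamini-Hochberg adjustment at 0.05. Both fits were tested on simulated data. The bin fit pooled its variance over bins (infinite prior degrees of freedom). Single values per library were compared by exact permutation tests. Python 3.11.15 with scipy 1.17.1 was used.

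The members, windows and tests were chosen with earlier results of these data known. Named items are the 10 densest and sparsest bins, the extreme 1 Mb windows, the 10 tallest shared regions, any that passed the test, and the 5 strongest regions specific to each state; bins and regions of smallest p were named after their values were seen. Alternatives were equal list lengths, a -log10 q of 5 or more, other overlaps, references, bin sizes, pseudocounts and scalings, a replicate block, and each library left out. Gene names come from RefSeq on GRCh38. Shares near transcription starts and base composition need hs1 annotation and sequence and were not analysed here.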

Additional observations from a re-analysis of the deposited data

How the results depend on the processing

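Of the settings run, 1 turned a direction: with 50% reciprocal overlap the mitotic-only minus asynchronous-only count went from 13 to -9, and it was 7 at a -log10 q of at least 5 and 8 with equal list lengths; the cause was not tested. The other 67 recomputed values of the main results kept their direction, or stayed at 0 calls. Leaving out each library in turn, the segment's share differed between states by -0.0831 to -0.0248 percentage points and the block's ratio by -0.781 to -0.328, and the excess over the reference was 0.88 to 0.94 for log2 height, 0.12 to 0.14 for log2 width and 12.4 to 13 points for sharing. Against all other nuclear peaks these were 0.75, 0.11 and 10.6. The block-to-trough difference ran from -1.73 to -1.47 without single libraries.

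The count of segment bins and shared regions past the test was 0 in every fit run. With the replicate block it was also 0, with a smallest adjusted p of 0.743 for bins and 0.255 for regions. Whether samples of the same replicate number were paired is not in the labels. Deviations of the 2 replicates numbered 3 correlated at -0.0216 over bins and -0.0493 over regions, which cannot settle it. Over all nuclear regions the calls moved from 12 to 14 with the replicate block, 31 with a common smallest width of 183 bp, 3 at a -log10 q of at least 5, 0 with genome background scaling or no variance trend, and 0 to 4 without single libraries. Over all nuclear bins the calls were 0, or 1 without asynchronous replicate 3 or mitotic replicate 4. Among segment bins, 10 were lower in mitosis at an unadjusted p under 0.05 without asynchronous replicate 3, or 15.2% beside 3.61% of all bins in that fit, against 2 with it. The median difference of segment minus reference stayed negative in all fits run, from -0.181 to -0.014 for bins and from -0.161 to -0.059 for regions. A count model was not run, as the lists hold no read counts per bin, nor were the alternatives that need hs1 annotation or sequence.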
